A study of Mus musculus with 9 samples.

Results

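Cytochrome P450 genes were compared across 3 groups of mouse kidneys. Members were the protein-coding genes whose symbol is Cyp followed by a number, letters and, except in Cyp51, a further number, and which reached at least 10 counts in at least 3 of the 9 libraries. The rule kept 44 genes, out of 95 protein-coding genes with such a name and 56923 gene identifiers in all. A further 5 P450 symbols end in a letter and stand outside the rule, and Cyp4a12a and Cyp4a12b among them are given beside their neighbours. All mice were labelled wild type (WT), and whole kidney was the tissue in every label. Kidneys labelled AKI_PTPi_mEVs came from mice with acute kidney injury (AKI) given vesicles from milk (mEVs) loaded with siRNA to the tyrosine phosphatase PTP1B. The title of AKI_PTPi_mEVs replicate 2 spells the vesicles PTP@mEVs, while its treatment label reads PTPi@mEVs as for the other two. Those labelled AKI_PBS came from injured mice given phosphate-buffered saline (PBS). Those labelled sham had the operation with no ischemia and reperfusion, and PBS is given as their treatment as well. No group labelled as given empty vesicles or a control siRNA was analysed here, and the labels give no time after injury, age or batch, so differences in these cannot be told apart from the groups. Sex is not labelled either, but in every library Xist had 1 to 5 counts and the Y-linked Ddx3y had 588 to 1520 counts. The labels do not state whether each library is a different mouse, so a p-value here reflects only the scatter among these libraries, which may be technical.

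P450 enzymes are haem-containing monooxygenases that insert oxygen into lipids, hormones, vitamins and foreign compounds. Most sit in the endoplasmic reticulum and take electrons from the reductase encoded by Por, and a smaller set in mitochondria is fed by ferredoxin and Fdxr. In the kidney they are best known from the proximal tubule, where Cyp2c and Cyp2j enzymes turn arachidonic acid into epoxides, Cyp4a enzymes hydroxylate fatty acids at their far end, and a mitochondrial pair makes and destroys active vitamin D.

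Library totals lay between 9467851 and 11389479 counts. Levels are CPM, counts scaled to a common library size by library total and TMM factor, and gene-level calls come from edgeR's quasi-likelihood test with a Benjamini-Hochberg adjusted p under 0.05 over the 17036 genes tested. Values after ± are standard errors of a log2 fold change unless SD is written. Ptpn1, which encodes the siRNA target, was at 105, 106 and 93.7 CPM in AKI_PTPi_mEVs, 123, 148 and 169.9 CPM in AKI_PBS and 80.7, 90.3 and 98.5 CPM in sham, and its log2 fold change was -0.53 ± 0.15 in AKI_PTPi_mEVs against AKI_PBS (edgeR adjusted p = 0.00862). The label kidney was checked against 20 proximal tubule markers, all of which were detected. AKI_PBS replicate 3 stood apart from its group on the third principal component, which held 6.27% of the variance, at 44.1 against -28.3 and -20.6.

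Of the 44 members, 36 held at least 10 counts in all 9 libraries. Cyp1a1, Cyp2c69, Cyp2j7, Cyp4f14 and Cyp4f15 had no AKI_PBS library at that minimum and so entered only through the other groups, where they are higher, which partly fixes their direction against AKI_PBS. Just inside the minimum, Cyp2c69 had 6, 2 and 18 counts in AKI_PTPi_mEVs, 2, 1 and 5 counts in AKI_PBS and 9, 11 and 10 counts in sham. Just outside it, Cyp2t4 had 2, 3 and 3 counts in AKI_PTPi_mEVs, 22, 26 and 6 counts in AKI_PBS and 6, 7 and 7 counts in sham. All 44 members entered the tests. Chromosome 4 carried 12 of them, the Cyp4a, Cyp4b and Cyp2j genes.

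The P450 share of all counts was about as large in AKI_PTPi_mEVs kidneys as in sham kidneys and lower in AKI_PBS kidneys. Together the 44 genes took 0.948%, 0.837% and 1.08% of the counts in the AKI_PTPi_mEVs libraries, 0.471%, 0.390% and 0.672% in the AKI_PBS libraries and 0.948%, 1.01% and 1.04% in the sham libraries. The AKI_PBS libraries all lay below those of both other groups. Few genes set these totals: the 4 most counted took 68.2% of the family's counts in AKI_PTPi_mEVs, 57.8% in AKI_PBS and 69.8% in sham. Cyp4b1 led in all 3 groups, with 27.1%, 29.9% and 36.6% in AKI_PTPi_mEVs, AKI_PBS and sham. The make-up differed between AKI_PTPi_mEVs and sham although the totals overlapped. Cyp4a10 took 14.3%, 16.8% and 18.3% of the family's counts in the AKI_PTPi_mEVs libraries, against 10.6%, 6.92% and 6.11% in the sham libraries. Cyp4a14 took 9.70%, 13.3% and 16.9% in AKI_PTPi_mEVs, against 4.26%, 1.53% and 1.06% in sham, where replicate 1 held most of it. Cyp2e1 took 7.11%, 5.46% and 5.88% in AKI_PTPi_mEVs, against 12.8%, 13.3% and 14.5% in sham. None of these shares overlapped between AKI_PTPi_mEVs and sham. In whole-tissue RNA, fewer cells of a type and less RNA per cell cannot be told apart.

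**Figure D1:**
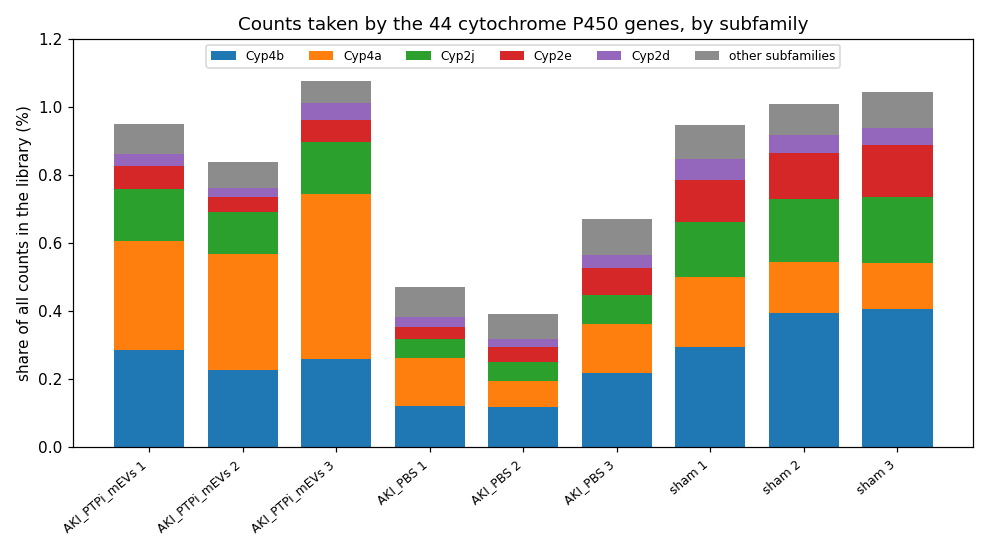
Share of each library's counts, in percent, taken by the 44 cytochrome P450 genes, with 1 bar per library and colours for the subfamilies that hold most counts. The AKI_PBS bars end between 0.390% and 0.672%, below all others, and the Cyp4a layer is thickest in the AKI_PTPi_mEVs bars.

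In AKI_PBS against sham, 35 of the 44 members passed, 10 higher and 25 lower, where 55.7% of all genes passed, 27.8% higher and 27.9% lower. The members' median log2 fold change was -0.75, and that of all genes was 0.03. The libraries of AKI_PBS and sham did not overlap for 34 members, 9 higher and 25 lower, against 62.1% of all genes, 31.2% higher and 30.9% lower. Both counts of 25 include Cyp1a1, Cyp2c69, Cyp2j7, Cyp4f14 and Cyp4f15, whose direction against AKI_PBS the count minimum partly fixes. In AKI_PTPi_mEVs against AKI_PBS, 28 members passed, 18 higher and 10 lower, where 51.1% of all genes passed, 25.4% higher and 25.8% lower. The median log2 fold change of the members was 0.59, and that of all genes was -0.03. Those libraries did not overlap for 24 members, 16 higher and 8 lower, against 57.9% of all genes, 28.7% higher and 29.2% lower. The 18 that passed as higher include Cyp1a1, Cyp2j7 and Cyp4f15, to which the same limit applies, and the 16 without overlap include Cyp1a1 and Cyp2j7. The members' medians of -0.75 and 0.59 were taken over all 44, with Cyp1a1, Cyp2c69, Cyp2j7, Cyp4f14 and Cyp4f15 included. In AKI_PTPi_mEVs against sham, 11 members passed, 3 higher and 8 lower, where 13.2% of all genes passed, 7.43% higher and 5.79% lower, and the medians were -0.14 for members and -0.01 for all genes. Libraries did not overlap for 21 members, 9 higher and 12 lower, against 39.2% of all genes, 21.2% higher and 18.1% lower. The called count was 7, 6 and 7 without AKI_PTPi_mEVs replicate 2, sham replicate 2 and sham replicate 3, and the count over all genes, 2251, was 1458, 883, 1168 and 940.0 without AKI_PTPi_mEVs replicate 1, AKI_PTPi_mEVs replicate 2, sham replicate 1 and sham replicate 2. These comparisons share libraries pairwise, so their values are set side by side without a test of likeness. Of 20 proximal tubule markers, 18 were lower and 0 higher in AKI_PBS than in sham, with a median log2 fold change of -1.37. In AKI_PTPi_mEVs, 14 were higher and 1 lower than in AKI_PBS, and 5 were lower and 0 higher than in sham. Their summed level ran from 17833 to 24249 CPM in AKI_PTPi_mEVs, from 9155 to 15450 CPM in AKI_PBS and from 24899 to 31689 CPM in sham, and none was at 0. Every AKI_PTPi_mEVs sum lay below every sham sum, whereas the family's share of counts overlapped between these groups. The 10 tubular injury markers summed to 7218 to 13086 CPM in AKI_PTPi_mEVs, 11317 to 15418 CPM in AKI_PBS and 2067 to 2407 CPM in sham. The part of either list in the P450 differences was not tested.

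**Figure D2:**
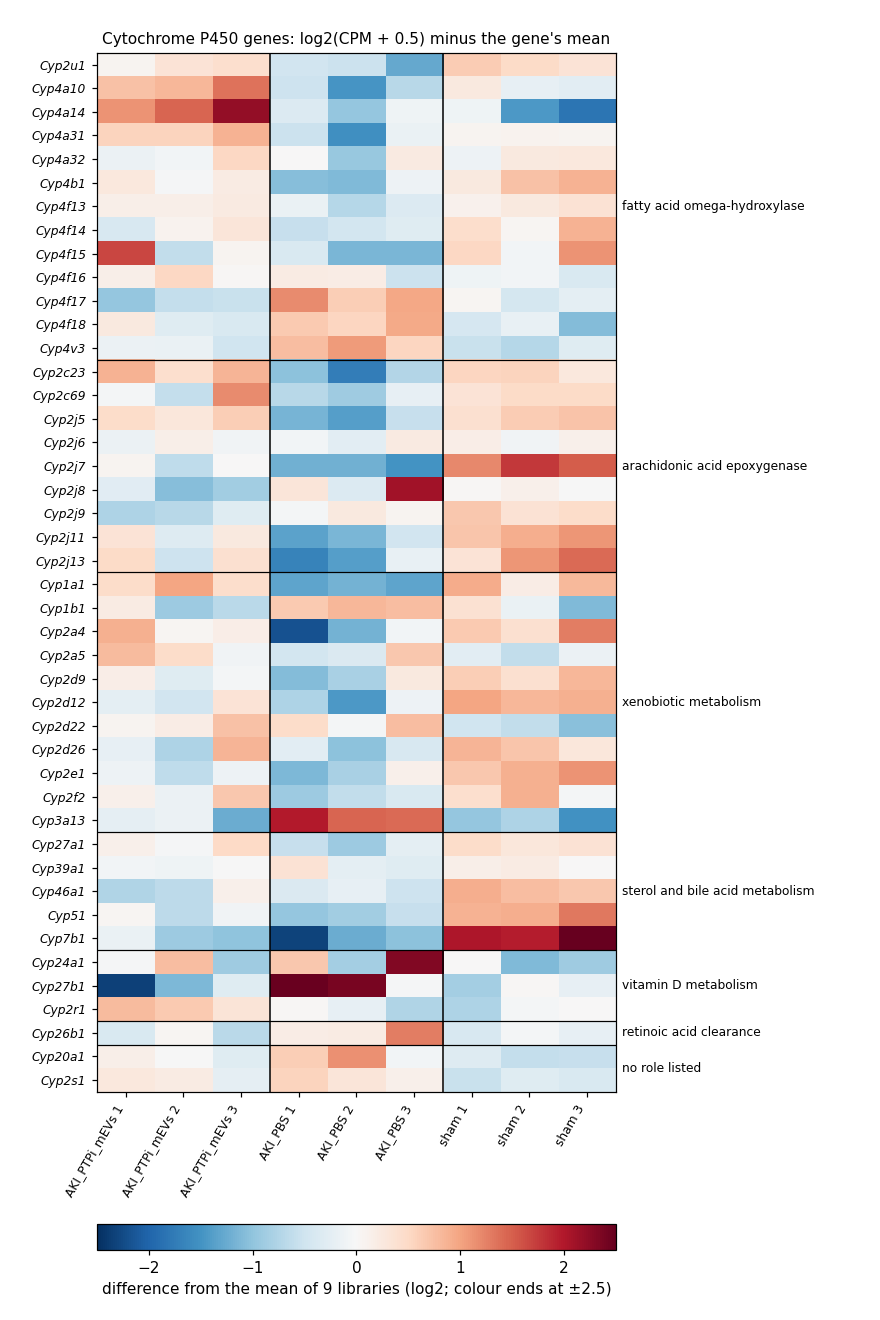
Level of each of the 44 P450 genes in each library, as log2(CPM + 0.5) minus the gene's mean over the 9 libraries, with genes in rows by role, libraries in columns by group and colours that end at 2.5 on either side. The AKI_PBS columns are blue for most epoxygenase genes and red for Cyp3a13, Cyp4f17 and Cyp4v3, and the sham columns are reddest for Cyp7b1.

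The fatty acid omega-hydroxylases, enzymes that add a hydroxyl group at the end of a fatty acid chain, held 13 members by subfamily. In AKI_PBS against sham 3 of them rose, 7 fell and 3 did not pass (median log2 fold change -0.64). Set against AKI_PBS, in AKI_PTPi_mEVs 7 rose, 3 fell and 3 did not pass (median 0.78), and in AKI_PTPi_mEVs against sham 2 rose, 0 fell and 11 did not pass (median 0.20). Over all genes 55.7%, 51.1% and 13.2% passed in these comparisons, in that order. Cyp4f14 and Cyp4f15 are among the 13 members, and the count minimum partly fixes their direction against AKI_PBS. Both genes that rose in AKI_PTPi_mEVs above sham were Cyp4a genes, which in mice are known targets of the fatty acid receptor PPAR alpha.

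Cyp4a14, a mouse fatty acid hydroxylase, was at 919, 1151 and 1936 CPM in AKI_PTPi_mEVs, 331, 215 and 391 CPM in AKI_PBS and 389.8, 155 and 117 CPM in sham. All 3 AKI_PTPi_mEVs libraries were above every other library, while AKI_PBS and sham overlapped. It rose by 2.10 ± 0.44 in AKI_PTPi_mEVs against AKI_PBS (edgeR adjusted p = 0.0023) and by 2.60 ± 0.45 against sham (edgeR adjusted p = 0.00464). The AKI_PBS difference from sham, 0.50 ± 0.42, did not pass (edgeR adjusted p = 0.335), but did without sham replicate 1, at 1.2 (edgeR adjusted p = 0.0104). Cyp4a10, the more abundant gene of this pair in sham, was at 1354, 1451 and 2102 CPM in AKI_PTPi_mEVs, 567, 291 and 505 CPM in AKI_PBS and 967, 703 and 680.0 CPM in sham. Its 3 groups did not overlap, with AKI_PTPi_mEVs highest and AKI_PBS lowest. Cyp4a10 rose by 1.85 ± 0.25 in AKI_PTPi_mEVs against AKI_PBS (edgeR adjusted p = 8.47e-05) and by 1.06 ± 0.25 against sham (edgeR adjusted p = 0.0148), and it fell by 0.79 ± 0.25 in AKI_PBS against sham (edgeR adjusted p = 0.0162). The call against sham was lost without AKI_PTPi_mEVs replicate 3, sham replicate 2 or sham replicate 3 (0.84, 0.99 and 0.97; edgeR adjusted p = 0.0544, 0.0731 and 0.0561), and the AKI_PBS call without AKI_PBS replicate 2 or sham replicate 1 (-0.55 and -0.61; edgeR adjusted p = 0.058 and 0.0772).

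Cyp4a31 was at 901, 897 and 1106 CPM in AKI_PTPi_mEVs, 419, 210.3 and 545 CPM in AKI_PBS and 639, 648 and 639.6 CPM in sham. Its AKI_PTPi_mEVs libraries were again highest and its AKI_PBS libraries lowest. It rose by 1.30 ± 0.26 in AKI_PTPi_mEVs against AKI_PBS (edgeR adjusted p = 0.00114), and its difference from sham, 0.59 ± 0.26, did not pass (edgeR adjusted p = 0.145) but did without AKI_PBS replicate 2 (edgeR adjusted p = 0.023). Its fall of 0.71 ± 0.26 in AKI_PBS against sham (log2 change -0.71, edgeR adjusted p = 0.0304) was lost without AKI_PBS replicate 1 or 2 or any single sham library (edgeR adjusted p between 0.0507 and 0.0696). Cyp4a12b, outside the rule by its name, was at 108, 202 and 178 CPM in AKI_PTPi_mEVs, 38.4, 24.7 and 22.8 CPM in AKI_PBS and 42.9, 39.1 and 39.1 CPM in sham. Its AKI_PTPi_mEVs libraries exceeded all others, and it rose by 2.01 ± 0.24 against sham (edgeR adjusted p = 0.000381). Its neighbour Cyp4a12a, known as the main arachidonic acid omega-hydroxylase of the male mouse kidney, fell by 1.85 ± 0.34 in AKI_PBS against sham (edgeR adjusted p = 0.000706) and rose by 1.97 ± 0.34 in AKI_PTPi_mEVs against AKI_PBS (edgeR adjusted p = 0.000586), and its AKI_PTPi_mEVs and sham libraries overlapped. Cyp4a32, the lowest of the subfamily at 5.40 to 8.88 CPM in AKI_PTPi_mEVs, 2.91 to 7.14 CPM in AKI_PBS and 5.47 to 7.40 CPM in sham, passed in none of the 3 comparisons. Summed over 7 Cyp4a genes the level was 3388, 3823 and 5439 CPM in AKI_PTPi_mEVs, 1383, 768 and 1509.9 CPM in AKI_PBS and 2114, 1617 and 1648 CPM in sham, and the 3 groups did not overlap. Close copies limit the single-gene values: 29.8% of the 50-base words of Cyp4a10 transcripts, 43.8% of those of Cyp4a32, 20.6% of those of Cyp4a31 and 48.9% and 49.4% of those of Cyp4a12a and Cyp4a12b occur in another gene, against 0.235% for Cyp4a14.

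Cyp4b1, known for hydroxylating medium-chain fatty acids and activating plant toxins, was the most abundant member per length, at 1175 CPM per kilobase in AKI_PTPi_mEVs, 654 CPM per kilobase in AKI_PBS and 1644 CPM per kilobase in sham. By library it was at 2865, 2335 and 2752 CPM in AKI_PTPi_mEVs, 1146, 1101 and 2182 CPM in AKI_PBS and 2833, 3960.3 and 4332 CPM in sham. AKI_PBS replicate 3 lay far above the other AKI_PBS libraries, and AKI_PTPi_mEVs overlapped sham. Cyp4b1 fell by 1.33 ± 0.25 in AKI_PBS against sham (edgeR adjusted p = 0.000706) and rose by 0.84 ± 0.25 in AKI_PTPi_mEVs against AKI_PBS (edgeR adjusted p = 0.013). The rise was lost without AKI_PBS replicate 1 or replicate 2 (0.69 and 0.67; edgeR adjusted p = 0.0564 and 0.0562). Cyp2u1, whose human enzyme hydroxylates long-chain fatty acids, was at 15.4, 18.5 and 19.7 CPM in AKI_PTPi_mEVs, 10.3, 9.84 and 5.73 CPM in AKI_PBS and 22.9, 20.6 and 18.5 CPM in sham. AKI_PBS was lowest in every library, and the other groups overlapped. It fell by 1.26 ± 0.22 in AKI_PBS against sham (edgeR adjusted p = 0.000379) and rose by 1.05 ± 0.22 in AKI_PTPi_mEVs against AKI_PBS (edgeR adjusted p = 0.00169).

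The Cyp4f subfamily split. Its summed level was nearly the same in all groups, at 128, 135 and 133 CPM in AKI_PTPi_mEVs, 159, 115 and 134 CPM in AKI_PBS and 135, 135 and 144 CPM in sham. Within that sum, Cyp4f13 fell by 0.64 ± 0.15 in AKI_PBS against sham (edgeR adjusted p = 0.00259), while Cyp4f17 rose by 1.16 ± 0.19 (edgeR adjusted p = 0.000211). Cyp4f17 was at 14.2, 18.4 and 18.9 CPM in AKI_PTPi_mEVs, 64.4, 43.4 and 55.3 CPM in AKI_PBS and 29.1, 20.6 and 23.5 CPM in sham. AKI_PBS stood above both other groups in every library, and AKI_PTPi_mEVs stood below sham. Cyp4f17 fell by 1.67 ± 0.19 in AKI_PTPi_mEVs against AKI_PBS (edgeR adjusted p = 2.22e-05), the smallest adjusted p of the 13 members with this role in that comparison, and its difference from sham, -0.51 ± 0.19, did not pass (edgeR adjusted p = 0.0977). Cyp4f18, which degrades the inflammatory lipid leukotriene B4 in mouse neutrophils, was at 2.29, 1.42 and 1.32 CPM in AKI_PTPi_mEVs, 3.19, 2.91 and 4.05 CPM in AKI_PBS and 1.27, 1.58 and 0.608 CPM in sham. It too was highest in the AKI_PBS libraries, rising by 1.53 ± 0.37 against sham (edgeR adjusted p = 0.00331), and AKI_PTPi_mEVs lay below AKI_PBS, at a log2 change of -1.0 ± 0.35 (edgeR adjusted p = 0.0308). That second call was lost without AKI_PTPi_mEVs replicate 2 or 3 or AKI_PBS replicate 3 (edgeR adjusted p = 0.0969, 0.107 and 0.0803).

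Cyp4f15 rested on few reads: it had 33, 2 and 6 counts in AKI_PTPi_mEVs, 4, 0 and 0 counts in AKI_PBS and 11, 6 and 19 counts in sham. Most of its AKI_PTPi_mEVs reads came from replicate 1, and AKI_PTPi_mEVs overlapped AKI_PBS. Its log2 fold change was 3.42 ± 1.12 in AKI_PTPi_mEVs against AKI_PBS (edgeR adjusted p = 0.0224), but 1.82 without AKI_PTPi_mEVs replicate 1 (edgeR adjusted p = 0.214), and the call was also lost without AKI_PBS replicate 2 or replicate 3 (edgeR adjusted p = 0.0695 and 0.0683). Its fall in AKI_PBS against sham, 3.22 ± 1.14 on the log2 scale (log2 change -3.22, edgeR adjusted p = 0.0297), was lost without AKI_PBS replicate 2, AKI_PBS replicate 3 or sham replicate 3 (edgeR adjusted p = 0.0873, 0.088 and 0.102). Cyp4f14, with 5, 6 and 7 counts in AKI_PBS and 14, 10 and 20 counts in sham, fell by 1.44 ± 0.44 (edgeR adjusted p = 0.0144), which was lost without sham replicate 3 (edgeR adjusted p = 0.0709), and Cyp4f16 passed in no comparison. Cyp4v3, the mouse counterpart of the human gene mutated in Bietti crystalline dystrophy, was at 7.41, 7.29 and 5.70 CPM in AKI_PTPi_mEVs, 14.4, 17.9 and 12.2 CPM in AKI_PBS and 5.47, 4.82 and 6.59 CPM in sham. Every AKI_PBS library lay above all others. It rose by 1.40 ± 0.22 in AKI_PBS against sham (edgeR adjusted p = 0.000193) and fell by 1.12 ± 0.22 in AKI_PTPi_mEVs against AKI_PBS (edgeR adjusted p = 0.00107).

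**Figure D3:**
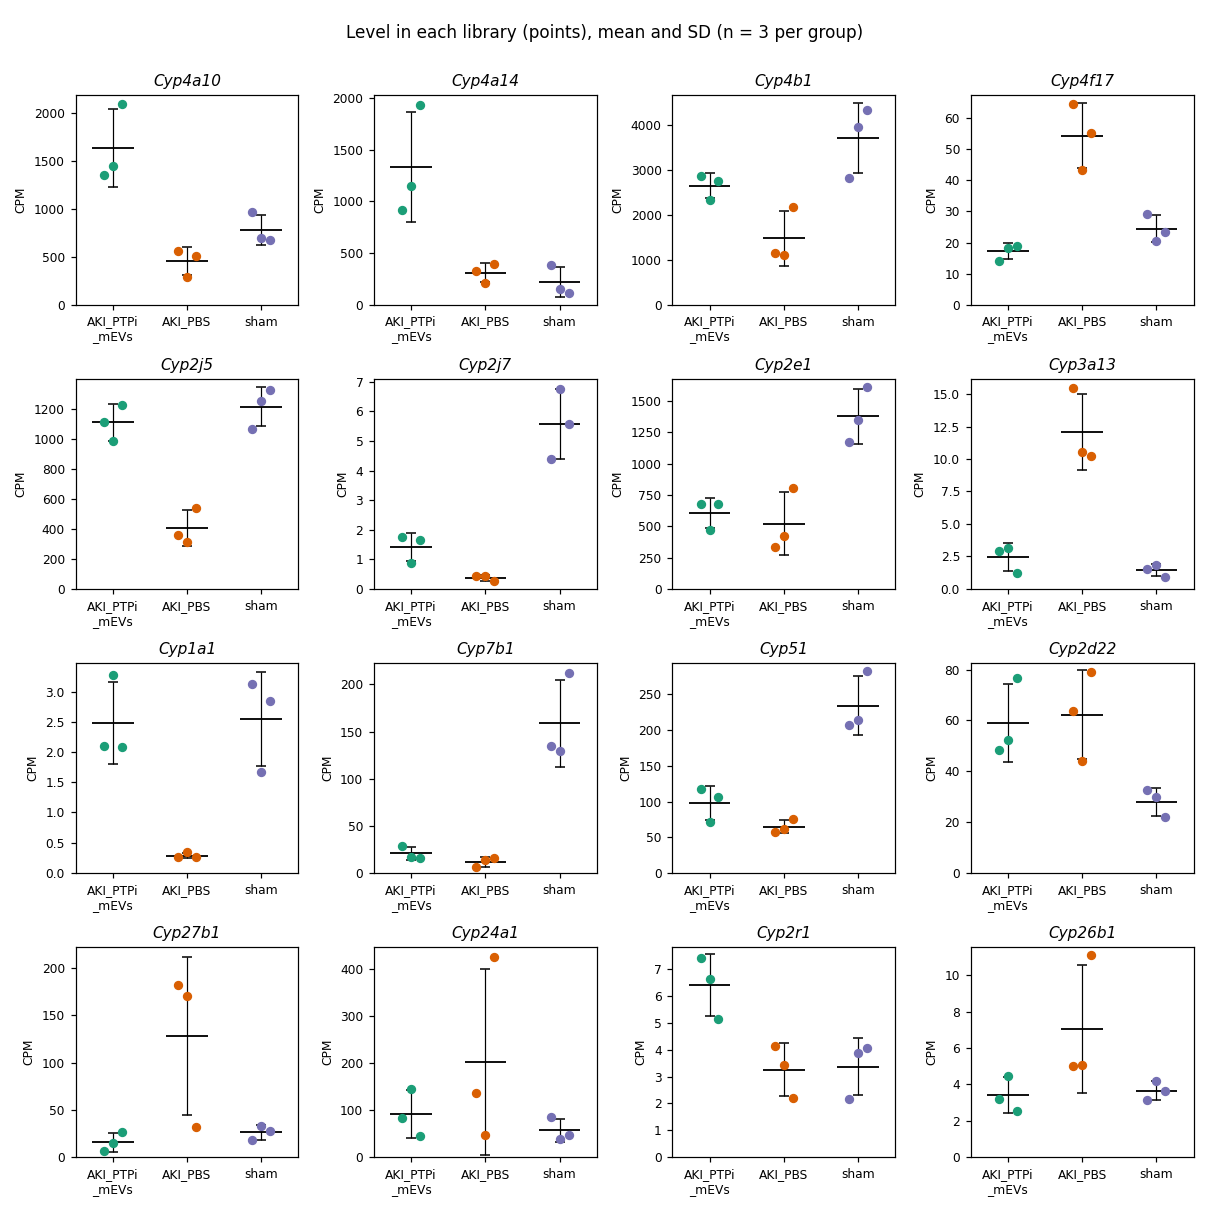
Level in CPM, on a linear axis from 0, of 16 P450 genes in each library (points), with the group mean (line) and SD (bar), n = 3 per group, in the order AKI_PTPi_mEVs, AKI_PBS and sham. Cyp4a10 and Cyp4a14 are highest in AKI_PTPi_mEVs, Cyp2e1, Cyp7b1 and Cyp51 are highest in sham, and Cyp3a13 and Cyp4f17 are highest in AKI_PBS.

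Arachidonic acid epoxygenases make the epoxyeicosatrienoic acids known to widen vessels and to act on sodium transport. This role was given by subfamily to all 9 Cyp2c and Cyp2j members, and single members may have other main products. In AKI_PBS against sham 0 rose, 7 fell and 2 did not pass (median log2 fold change -1.60). AKI_PTPi_mEVs kidneys against AKI_PBS showed the reverse balance, where 5 rose, 2 fell and 2 did not pass (median 1.12), and in AKI_PTPi_mEVs against sham 0 rose, 3 fell and 6 did not pass (median -0.80). Of all genes, 55.7%, 51.1% and 13.2% passed in these comparisons, in that order. Cyp2c69 and Cyp2j7 are among the 9 members, and the count minimum partly fixes their direction against AKI_PBS. The promoter of Cyp2j5, the most abundant epoxygenase, is shown here with AGGTCA in capitals, the core hexamer that many nuclear receptors bind, as the 250 bases before its start on chromosome 4 (GRCm38.p6, chr4:96664120-96664369, minus strand, sequence from RefSeq).
Cyp2j5: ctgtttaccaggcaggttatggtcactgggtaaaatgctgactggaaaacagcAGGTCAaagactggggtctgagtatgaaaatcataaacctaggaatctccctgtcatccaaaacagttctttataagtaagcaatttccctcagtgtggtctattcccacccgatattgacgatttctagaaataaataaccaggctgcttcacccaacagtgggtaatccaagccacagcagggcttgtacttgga
The hexamer lay at positions -197 to -192 from the start. Promoters were matched for 32 of the 44 members, 36 promoters in all, and AGGTCA, searched on both strands in the 250 bases before the start, occurred in 2 of the 36 (Cyp2j5 and Cyp2f2), against 14.02% of all 32851 promoters. Such a match is a run of letters and not evidence of binding.

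Cyp2j5, an epoxygenase of the mouse proximal tubule, was at 1112, 988 and 1229.7 CPM in AKI_PTPi_mEVs, 362, 310.1 and 542 CPM in AKI_PBS and 1069, 1252 and 1324 CPM in sham. The AKI_PBS libraries were lowest, and AKI_PTPi_mEVs overlapped sham. It fell by 1.59 ± 0.20 in AKI_PBS against sham (edgeR adjusted p = 2.89e-05) and rose by 1.46 ± 0.20 in AKI_PTPi_mEVs against AKI_PBS (edgeR adjusted p = 7.46e-05). AKI_PTPi_mEVs against sham gave -0.13 ± 0.19, short of the threshold (edgeR adjusted p = 0.709). Cyp2c23, the counterpart of the main epoxygenase of the rat kidney, was at 58.5, 42.7 and 57.4 CPM in AKI_PTPi_mEVs, 15.3, 9.24 and 19.0 CPM in AKI_PBS and 46.4, 47.0 and 38.4 CPM in sham. AKI_PBS was again lowest in every library and the other groups overlapped, with a fall of 1.60 ± 0.23 in AKI_PBS against sham (log2 change -1.60, edgeR adjusted p = 8.2e-05) and a rise of 1.86 ± 0.23 in AKI_PTPi_mEVs against AKI_PBS (edgeR adjusted p = 3.69e-05). Cyp2c69, with 54.3% of its 50-base words in other genes and the few counts given above, fell by 2.02 ± 0.75 in AKI_PBS against sham (edgeR adjusted p = 0.0352), a call lost without AKI_PBS replicate 1 or 2 or any single sham library (edgeR adjusted p between 0.0616 and 0.118).

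Cyp2j7 had the largest fitted fall of any member in AKI_PBS against sham, but no AKI_PBS library reached the count minimum, so the rule partly fixes that direction. It was at 1.74, 0.871 and 1.64 CPM in AKI_PTPi_mEVs, 0.431, 0.428 and 0.264 CPM in AKI_PBS and 4.40, 6.77 and 5.57 CPM in sham. The 3 groups did not overlap, and AKI_PTPi_mEVs lay between AKI_PBS and sham. Cyp2j7 fell by 3.85 ± 0.38 in AKI_PBS against sham (edgeR adjusted p = 4.87e-06), rose by 1.90 ± 0.43 in AKI_PTPi_mEVs against AKI_PBS (edgeR adjusted p = 0.00291) and was below sham in AKI_PTPi_mEVs, with a log2 change of -1.96 ± 0.32 (edgeR adjusted p = 0.00256). Cyp2j11, far more abundant at 180.2, 114 and 169 CPM in AKI_PTPi_mEVs, 56.1, 64.0 and 102 CPM in AKI_PBS and 230.3, 268 and 308 CPM in sham, had the same order. It fell by 1.86 ± 0.23 in AKI_PBS against sham (edgeR adjusted p = 3.13e-05), rose by 1.06 ± 0.23 in AKI_PTPi_mEVs against AKI_PBS (edgeR adjusted p = 0.00205) and was below sham in AKI_PTPi_mEVs (log2 change -0.80 ± 0.23, edgeR adjusted p = 0.035), which was lost without AKI_PTPi_mEVs replicate 2 or 3 or any single sham library (edgeR adjusted p between 0.0557 and 0.132). Cyp2j13 was at 174, 86.6 and 165 CPM in AKI_PTPi_mEVs, 38.9, 47.6 and 109 CPM in AKI_PBS and 157, 268 and 332 CPM in sham. AKI_PTPi_mEVs replicate 2 lay below AKI_PBS replicate 3, so these groups overlapped. Cyp2j13 fell by 1.96 ± 0.41 in AKI_PBS against sham (edgeR adjusted p = 0.00207), and its rise in AKI_PTPi_mEVs against AKI_PBS (1.12 ± 0.40, edgeR adjusted p = 0.0371) was lost without AKI_PTPi_mEVs replicate 1 or 3 or AKI_PBS replicate 1 or 2 (edgeR adjusted p between 0.0903 and 0.141) and in DESeq2 (DESeq2 adjusted p = 0.061).

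The remaining Cyp2j genes went other ways. Cyp2j9 was at 14.6, 15.5 and 20.4 CPM in AKI_PTPi_mEVs, 24.3, 30.1 and 26.5 CPM in AKI_PBS and 40.8, 32.6 and 35.2 CPM in sham. It was lowest in AKI_PTPi_mEVs, in every library, falling by 0.69 ± 0.17 against AKI_PBS (edgeR adjusted p = 0.00489) and by 1.11 ± 0.17 against sham (edgeR adjusted p = 0.00172). Its fall of 0.42 ± 0.17 in AKI_PBS against sham (edgeR adjusted p = 0.045) was lost with library totals in place of TMM (edgeR adjusted p = 0.101), and without AKI_PBS replicate 1 or 3 or any single sham library (edgeR adjusted p between 0.0554 and 0.159). Cyp2j8 was at 0.915, 0.327 and 0.439 CPM in AKI_PTPi_mEVs, 1.64, 0.855 and 6.87 CPM in AKI_PBS and 1.27, 1.39 and 1.22 CPM in sham. AKI_PBS replicate 3 held most of its reads in AKI_PBS, and the fall of 2.41 ± 0.71 in AKI_PTPi_mEVs against AKI_PBS (log2 change -2.41, edgeR adjusted p = 0.0133) was -1.10 without that library (edgeR adjusted p = 0.0831). Cyp2j6 was close to level, at 51.6, 63.9 and 54.0 CPM in AKI_PTPi_mEVs, 54.6, 47.6 and 66.8 CPM in AKI_PBS and 64.4, 54.2 and 62.6 CPM in sham, and passed in no comparison.

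Drug- and toxin-metabolising P450s held 11 members. In AKI_PBS against sham 3 rose, 7 fell and 1 did not pass (median log2 fold change -1.15). Between AKI_PTPi_mEVs and AKI_PBS 3 rose, 2 fell and 6 did not pass (median 0.38), and in AKI_PTPi_mEVs against sham 1 rose, 2 fell and 8 did not pass (median -0.25). The shares of all genes that passed were 55.7%, 51.1% and 13.2%, in that order. Cyp1a1 is among the 11 members, and the count minimum partly fixes its direction against AKI_PBS. Cyp1a1 and Cyp1b1, the textbook targets of the aryl hydrocarbon receptor, moved in opposite directions, so their promoters are shown with GCGTG, the core of that receptor's binding site, in capitals on whichever strand it lies. Both are the 250 bases before the start from RefSeq (GRCm38.p6), Cyp1a1 at chr9:57697363-57697612 on the plus strand and Cyp1b1 at chr17:79715062-79715311 on the minus strand.
Cyp1a1: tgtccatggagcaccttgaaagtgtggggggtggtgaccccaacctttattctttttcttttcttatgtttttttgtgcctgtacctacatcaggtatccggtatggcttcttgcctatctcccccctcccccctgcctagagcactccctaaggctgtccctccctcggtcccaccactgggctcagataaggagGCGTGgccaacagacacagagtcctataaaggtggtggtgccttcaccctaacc
Cyp1b1: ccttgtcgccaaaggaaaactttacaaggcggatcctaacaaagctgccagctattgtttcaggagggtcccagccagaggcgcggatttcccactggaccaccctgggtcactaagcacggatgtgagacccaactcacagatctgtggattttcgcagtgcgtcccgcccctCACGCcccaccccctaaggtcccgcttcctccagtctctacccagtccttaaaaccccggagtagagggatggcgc
The Cyp1a1 copy lay at -54 to -50 from the start and the Cyp1b1 copy, read on the other strand, at -76 to -72. GCGTG occurred in 11 of the 36 member promoters and in 28.2% of all 32851 promoters, so both genes shared a common run of letters.

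Cyp1a1 was at 2.10, 3.27 and 2.08 CPM in AKI_PTPi_mEVs, 0.259, 0.342 and 0.264 CPM in AKI_PBS and 3.13, 1.67 and 2.84 CPM in sham. The 3 AKI_PBS libraries held 3, 4 and 3 counts, and AKI_PTPi_mEVs overlapped sham. It fell by 3.08 ± 0.43 in AKI_PBS against sham (edgeR adjusted p = 7.06e-05) and rose by 3.05 ± 0.44 in AKI_PTPi_mEVs against AKI_PBS (edgeR adjusted p = 0.00011). Ahrr, the repressor gene that the aryl hydrocarbon receptor switches on, had 52, 15 and 22 counts in AKI_PTPi_mEVs, 0 in each AKI_PBS library and 36, 40 and 16 counts in sham. Against a floor of 3 counts over the AKI_PBS group it was at least 35.1-fold higher in AKI_PTPi_mEVs and at least 34.4-fold higher in sham. Ahr itself passed in no comparison. Cyp1b1 was at 15.9, 7.19 and 8.44 CPM in AKI_PTPi_mEVs, 22.2, 25.1 and 23.9 CPM in AKI_PBS and 18.2, 12.3 and 6.18 CPM in sham. All AKI_PBS libraries were above all others, while AKI_PTPi_mEVs and sham overlapped over a wide range. It rose by 0.95 ± 0.34 in AKI_PBS against sham (edgeR adjusted p = 0.0311) and fell by 1.16 ± 0.35 in AKI_PTPi_mEVs against AKI_PBS (edgeR adjusted p = 0.0138). The rise was lost without AKI_PBS replicate 2 or 3 or sham replicate 2 or 3 (edgeR adjusted p between 0.0638 and 0.101), and the fall without AKI_PTPi_mEVs replicate 2 or 3 (edgeR adjusted p = 0.056 and 0.0561).

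Cyp2e1, the ethanol- and paracetamol-oxidising enzyme, was the second most abundant member per length in sham, at 638 CPM per kilobase. It was at 674, 471 and 674 CPM in AKI_PTPi_mEVs, 335, 420.4 and 807 CPM in AKI_PBS and 1173, 1351 and 1608 CPM in sham. Both injured groups lay below sham in every library and overlapped each other. Cyp2e1 fell by 1.40 ± 0.28 in AKI_PBS against sham (edgeR adjusted p = 0.00108) and by 1.18 ± 0.28 in AKI_PTPi_mEVs against sham (edgeR adjusted p = 0.0162). AKI_PTPi_mEVs against AKI_PBS gave 0.22 ± 0.28, short of the threshold (edgeR adjusted p = 0.527), but without AKI_PBS replicate 3 the difference was 0.68 and passed (edgeR adjusted p = 0.0136). The call of AKI_PTPi_mEVs against sham was lost without AKI_PTPi_mEVs replicate 2, sham replicate 2 or sham replicate 3 (edgeR adjusted p = 0.0713, 0.0518 and 0.0528). Cyp2e1 is also a liver gene, and of 8 liver markers Cyp7a1 was at 0 in all libraries, Ahsg had 1 count and Cps1 had 3 counts in all. The 8 liver markers summed to 46.5 to 54.5 CPM in AKI_PTPi_mEVs, 37.9 to 43.4 CPM in AKI_PBS and 110.1 to 125 CPM in sham, mostly from Serpina1a and Ttr, and their part in the Cyp2e1 difference was not tested.

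Cyp3a13, a drug-metabolising enzyme, had the largest rise of any member in AKI_PBS against sham. It was at 2.93, 3.16 and 1.21 CPM in AKI_PTPi_mEVs, 15.4, 10.5 and 10.2 CPM in AKI_PBS and 1.56, 1.86 and 0.912 CPM in sham. All AKI_PBS libraries were above all others, and the other groups overlapped. It rose by 3.04 ± 0.36 in AKI_PBS against sham (edgeR adjusted p = 2.02e-05) and fell by 2.30 ± 0.34 in AKI_PTPi_mEVs against AKI_PBS (edgeR adjusted p = 0.00015).

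The 4 Cyp2d members went both ways. Cyp2d22, the mouse gene often set beside human CYP2D6, was at 48.2, 52.5 and 76.5 CPM in AKI_PTPi_mEVs, 63.7, 44.2 and 78.9 CPM in AKI_PBS and 32.4, 29.9 and 21.9 CPM in sham. Both injured groups were above sham in every library. It rose by 1.07 ± 0.23 in AKI_PTPi_mEVs against sham (edgeR adjusted p = 0.0111) and by 1.15 ± 0.23 in AKI_PBS against sham (edgeR adjusted p = 0.00118), and AKI_PTPi_mEVs against AKI_PBS gave -0.08 ± 0.23, short of the threshold (edgeR adjusted p = 0.798). Cyp2d26, by contrast, was at 122, 81.2 and 251 CPM in AKI_PTPi_mEVs, 116, 68.3 and 106 CPM in AKI_PBS and 250.4, 226 and 169.9 CPM in sham. AKI_PTPi_mEVs replicate 3 lay with sham and the other AKI_PTPi_mEVs libraries lay near AKI_PBS. Cyp2d26 fell by 1.15 ± 0.35 in AKI_PBS against sham (edgeR adjusted p = 0.0156), a call lost without AKI_PBS replicate 2 (edgeR adjusted p = 0.0507). Cyp2d12 fell by 1.59 ± 0.29 in AKI_PBS against sham (edgeR adjusted p = 0.00055) and by 0.99 ± 0.28 in AKI_PTPi_mEVs against sham (edgeR adjusted p = 0.037), and the second call was lost without AKI_PTPi_mEVs replicate 1 or 2 or any single sham library (edgeR adjusted p between 0.0752 and 0.132). Cyp2d9, a steroid hydroxylase in mice, fell by 1.06 ± 0.28 in AKI_PBS against sham (edgeR adjusted p = 0.00719) and passed in no other comparison.

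The near copies Cyp2a4 and Cyp2a5 share 38.0% and 37.0% of their 50-base words with other genes. Cyp2a4 was at 119.7, 66.1 and 72.5 CPM in AKI_PTPi_mEVs, 13.9, 28.0 and 61.3 CPM in AKI_PBS and 101, 84.7 and 156 CPM in sham. It fell by 1.73 ± 0.46 in AKI_PBS against sham (edgeR adjusted p = 0.00887) and rose by 1.33 ± 0.46 in AKI_PTPi_mEVs against AKI_PBS (edgeR adjusted p = 0.0327), a rise lost without AKI_PTPi_mEVs replicate 1 or 3 or AKI_PBS replicate 2 (edgeR adjusted p = 0.143, 0.0521 and 0.0811). Cyp2a5, the mouse coumarin hydroxylase, passed in no comparison. Cyp2f2, known for naphthalene oxidation in the mouse airway, fell by 1.36 ± 0.38 in AKI_PBS against sham (edgeR adjusted p = 0.00825) and rose by 1.11 ± 0.38 in AKI_PTPi_mEVs against AKI_PBS (edgeR adjusted p = 0.0287), at 4.55 CPM or less in every library. The fall was lost without sham replicate 2 (edgeR adjusted p = 0.054) and the rise without AKI_PTPi_mEVs replicate 3 or AKI_PBS replicate 1 or 2 (edgeR adjusted p = 0.139, 0.0886 and 0.0655).

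**Figure D4:**
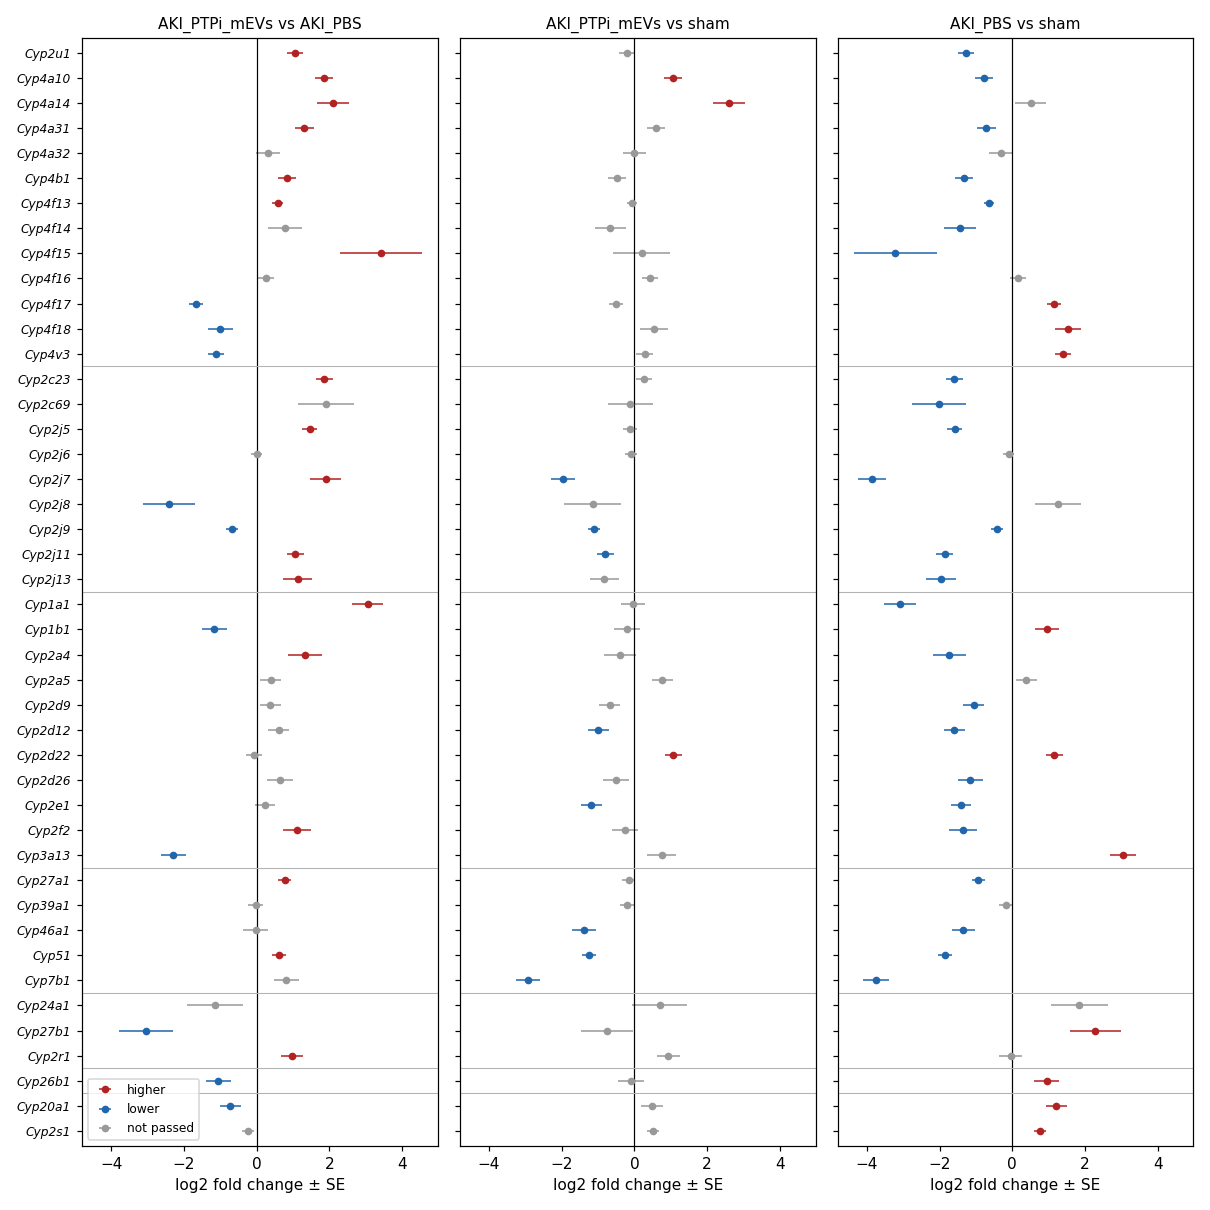
Log2 fold change (points) with its standard error (bars) of each of the 44 P450 genes in AKI_PTPi_mEVs against AKI_PBS, AKI_PTPi_mEVs against sham and AKI_PBS against sham, with genes in rows by role and colours for higher, lower and not passed at an edgeR adjusted p under 0.05. Most points lie right of 0 in the first panel and left of 0 in the last, and the middle panel holds 3 red and 8 blue points.

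Sterol and bile acid P450s held 5 members, and 3 of these were below sham in AKI_PTPi_mEVs as well as in AKI_PBS kidneys. In AKI_PBS against sham 0 rose, 4 fell and 1 did not pass (median log2 fold change -1.35). Between AKI_PTPi_mEVs and AKI_PBS 2 rose, 0 fell and 3 did not pass (median 0.60), and in AKI_PTPi_mEVs against sham 0 rose, 3 fell and 2 did not pass (median -1.25). Over all genes 55.7%, 51.1% and 13.2% passed in these comparisons, in that order. Cyp7b1, an oxysterol hydroxylase of the alternative bile acid pathway, was at 28.9, 17.1 and 16.0 CPM in AKI_PTPi_mEVs, 6.12, 13.5 and 15.7 CPM in AKI_PBS and 134, 129 and 212 CPM in sham. Every sham library was several-fold above every injured library, and AKI_PTPi_mEVs stood just above AKI_PBS without overlap. Cyp7b1 fell by 3.75 ± 0.35 in AKI_PBS against sham (edgeR adjusted p = 5.23e-06) and by 2.93 ± 0.33 in AKI_PTPi_mEVs against sham (edgeR adjusted p = 0.000447). The difference between AKI_PTPi_mEVs and AKI_PBS, 0.82 ± 0.34, did not pass (edgeR adjusted p = 0.06), but it passed without AKI_PBS replicate 3 (1.08, edgeR adjusted p = 0.0424), without sham replicate 3 (0.82, edgeR adjusted p = 0.0473) and in DESeq2 (0.81, DESeq2 adjusted p = 0.0293).

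Cyp51, the lanosterol demethylase of cholesterol synthesis, was at 117, 71.3 and 107 CPM in AKI_PTPi_mEVs, 57.3, 61.7 and 75.3 CPM in AKI_PBS and 207, 214 and 282 CPM in sham. Sham stood apart from both injured groups, which overlapped each other. It fell by 1.86 ± 0.20 in AKI_PBS against sham (edgeR adjusted p = 8.41e-06) and by 1.25 ± 0.19 in AKI_PTPi_mEVs against sham (edgeR adjusted p = 0.00179). Its rise in AKI_PTPi_mEVs against AKI_PBS, 0.60 ± 0.19 (edgeR adjusted p = 0.0196), was lost without AKI_PTPi_mEVs replicate 1 or 3 or AKI_PBS replicate 1 or 2 (edgeR adjusted p between 0.0625 and 0.0856). The run TCACNCCAC of the sterol regulatory element, searched on both strands, was in 0 of the 36 member promoters, Cyp51's included, and in 1.05% of all promoters, within the 250 bases searched.

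Cyp27a1, the mitochondrial sterol hydroxylase, was at 59.9, 53.3 and 77.3 CPM in AKI_PTPi_mEVs, 36.6, 29.0 and 45.9 CPM in AKI_PBS and 75.6, 66.8 and 70.0 CPM in sham. AKI_PBS was lowest in every library, and AKI_PTPi_mEVs overlapped sham. It fell by 0.93 ± 0.18 in AKI_PBS against sham (edgeR adjusted p = 0.000822) and rose by 0.77 ± 0.18 in AKI_PTPi_mEVs against AKI_PBS (edgeR adjusted p = 0.00337). Cyp46a1, a cholesterol hydroxylase best known from neurons, was at 1.19, 1.31 and 2.63 CPM in AKI_PTPi_mEVs, 1.72, 1.97 and 1.5 CPM in AKI_PBS and 4.89, 4.36 and 4.05 CPM in sham. Both injured groups were below sham and overlapped each other. It fell by 1.35 ± 0.32 in AKI_PBS against sham (edgeR adjusted p = 0.00291) and by 1.38 ± 0.32 in AKI_PTPi_mEVs against sham (edgeR adjusted p = 0.0149), and the second call was lost without AKI_PTPi_mEVs replicate 1 or 2 or sham replicate 1 or 2 (edgeR adjusted p between 0.0538 and 0.0718). Cyp39a1, another oxysterol hydroxylase, lay between 11.4 and 18.3 CPM in all libraries and passed in no comparison.

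Of the 3 vitamin D genes 1 rose, 0 fell and 2 did not pass in AKI_PBS against sham, 1 rose, 1 fell and 1 did not pass in AKI_PTPi_mEVs against AKI_PBS, and 0 passed in AKI_PTPi_mEVs against sham. The shares of all genes that passed were 55.7%, 51.1% and 13.2%, in that order. Cyp27b1, which makes active vitamin D in the kidney, was at 6.04, 14.6 and 26.3 CPM in AKI_PTPi_mEVs, 182, 171 and 31.7 CPM in AKI_PBS and 17.9, 33.0 and 28.0 CPM in sham. AKI_PBS replicates 1 and 2 were far above every other library, and AKI_PBS replicate 3 lay within the sham range. It fell by 3.05 ± 0.73 in AKI_PTPi_mEVs against AKI_PBS (edgeR adjusted p = 0.00918) and was higher in AKI_PBS than in sham by 2.29 ± 0.70 (edgeR adjusted p = 0.0239), a call lost without sham replicate 1 or sham replicate 3 (edgeR adjusted p = 0.0617 and 0.0707). Cyp24a1, which degrades active vitamin D, was at 83.5, 146 and 45.6 CPM in AKI_PTPi_mEVs, 137, 46.8 and 425 CPM in AKI_PBS and 85.1, 39.1 and 45.9 CPM in sham. All 3 groups overlapped, and the highest value was that of AKI_PBS replicate 3, the library in which Cyp27b1 was lowest within AKI_PBS. Cyp24a1 passed in no comparison (1.84 ± 0.78 in AKI_PBS against sham, edgeR adjusted p = 0.0769), but in DESeq2 it passed as higher in AKI_PBS than in sham (DESeq2 adjusted p = 0.0455). Without AKI_PBS replicate 2 it passed as higher in AKI_PBS than in sham (2.31, edgeR adjusted p = 0.00614) and as lower in AKI_PTPi_mEVs than in AKI_PBS (-1.62, edgeR adjusted p = 0.0333). Cyp2r1, which carries out the first hydroxylation of vitamin D, was at 7.41, 6.64 and 5.15 CPM in AKI_PTPi_mEVs, 4.14, 3.42 and 2.20 CPM in AKI_PBS and 2.15, 3.90 and 4.05 CPM in sham. AKI_PTPi_mEVs was above both other groups in every library. It rose by 0.98 ± 0.31 in AKI_PTPi_mEVs against AKI_PBS (edgeR adjusted p = 0.0181), which was lost without AKI_PTPi_mEVs replicate 1 or AKI_PBS replicate 3 (edgeR adjusted p = 0.0645 and 0.0535), and its difference from sham, 0.93 ± 0.31, did not pass (edgeR adjusted p = 0.0659) but did without AKI_PBS replicate 3 (edgeR adjusted p = 0.0339) and in DESeq2 (DESeq2 adjusted p = 0.0478).

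Cyp26b1, the only retinoic acid clearing member, was at 3.20, 4.46 and 2.52 CPM in AKI_PTPi_mEVs, 5.0, 5.05 and 11.1 CPM in AKI_PBS and 3.13, 4.17 and 3.65 CPM in sham. AKI_PBS replicate 3 held more than the other AKI_PBS libraries. It rose by 0.95 ± 0.34 in AKI_PBS against sham (edgeR adjusted p = 0.0309) and fell by 1.05 ± 0.34 in AKI_PTPi_mEVs against AKI_PBS (edgeR adjusted p = 0.0216), but without AKI_PBS replicate 3 these were 0.46 and -0.56 and neither passed (edgeR adjusted p = 0.184 and 0.115). The first call was also lost without any single sham library (edgeR adjusted p between 0.0527 and 0.099), and the second without AKI_PTPi_mEVs replicate 1 or 3 (edgeR adjusted p = 0.059 and 0.0856). Of the 2 members with no role listed, Cyp20a1, an orphan P450, was at 8.69, 7.73 and 6.25 CPM in AKI_PTPi_mEVs, 12.2, 17.9 and 7.49 CPM in AKI_PBS and 6.16, 5.01 and 5.07 CPM in sham. It was above sham in every AKI_PBS library and rose by 1.21 ± 0.29 (edgeR adjusted p = 0.00339). Its lower level in AKI_PTPi_mEVs than in AKI_PBS (-0.73 ± 0.28, edgeR adjusted p = 0.0473) was lost when any library other than AKI_PBS replicate 3 was left out (edgeR adjusted p between 0.0545 and 0.266). Cyp2s1, an epithelial P450, was at 44.3, 42.2 and 31.5 CPM in AKI_PTPi_mEVs, 54.6, 45.4 and 40.2 CPM in AKI_PBS and 24.8, 29.9 and 28.0 CPM in sham. Both injured groups were above sham in every library. Cyp2s1 rose by 0.76 ± 0.17 in AKI_PBS against sham (edgeR adjusted p = 0.00196), and its difference in AKI_PTPi_mEVs against sham, 0.51 ± 0.17, did not pass (edgeR adjusted p = 0.0625) but did without AKI_PTPi_mEVs replicate 3, AKI_PBS replicate 1 or AKI_PBS replicate 3 (edgeR adjusted p = 0.0342, 0.0483 and 0.0316).

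Steroid hormone synthesis P450s did not reach the count minimum: all 6 such genes were among the 51 family genes below it, of which 19 had 0 counts in every library. Cyp11b1, the adrenal enzyme of corticosterone synthesis, had 0 counts in all 9 libraries. Cyp21a1, the adrenal steroid hydroxylase, had 3, 1 and 1 counts in AKI_PTPi_mEVs, 2, 2 and 0 counts in AKI_PBS and 1, 0 and 1 counts in sham. Of 10 adrenal cortex markers, Cyp11b1 and Cyp11b2 were at 0, and the summed level was 40.6 to 41.5 CPM in AKI_PTPi_mEVs, 40.5 to 52.4 CPM in AKI_PBS and 45.1 to 50.8 CPM in sham. Only 4 of the 10 had enough counts to be tested, Fdxr and Akr1b7 among them. Because Fdxr serves mitochondrial P450s in general, the sum need not be adrenal RNA.

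P450s depend on haem enzymes and on electron donors, Por for most of them and Fdxr for the mitochondrial set. Over all genes 55.7% passed in AKI_PBS against sham, 51.1% in AKI_PTPi_mEVs against AKI_PBS and 13.2% in AKI_PTPi_mEVs against sham, and the median log2 fold changes were 0.03, -0.03 and -0.01, which are the values to read the next counts against. Of 10 measured redox partner and haem genes, 2 rose, 3 fell and 5 did not pass in AKI_PBS against sham (median log2 fold change -0.15). Between AKI_PTPi_mEVs and AKI_PBS 3 rose, 1 fell and 6 did not pass (median 0.19), and in AKI_PTPi_mEVs against sham 2 rose, 1 fell and 7 did not pass (median 0.02). Por, the common electron donor, passed in no comparison (-0.71 ± 0.29 in AKI_PBS against sham, edgeR adjusted p = 0.054), but it passed as lower there without AKI_PTPi_mEVs replicate 2, AKI_PBS replicate 3 or sham replicate 1 (edgeR adjusted p = 0.0485, 0.00139 and 0.0286) and in DESeq2 and limma voom (DESeq2 and limma adjusted p = 0.0289 and 0.0328). The difference between Por and Fdxr was not tested. Fdxr, the mitochondrial reductase, fell by 1.39 ± 0.16 in AKI_PBS against sham (edgeR adjusted p = 1.93e-05) and rose by 1.36 ± 0.17 in AKI_PTPi_mEVs against AKI_PBS (edgeR adjusted p = 3.4e-05). Hmox1, which breaks down haem, rose by 2.85 ± 0.23 in AKI_PBS and by 1.70 ± 0.23 in AKI_PTPi_mEVs against sham (edgeR adjusted p = 1.38e-06 and 0.000745). Alas1, which starts haem synthesis, rose by 0.74 ± 0.20 in AKI_PBS and by 1.15 ± 0.20 in AKI_PTPi_mEVs against sham (edgeR adjusted p = 0.00625 and 0.00303).

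Of 14 tested regulators of P450 genes, 3 rose, 6 fell and 5 did not pass in AKI_PBS against sham (median log2 fold change -0.39, where 55.7% of all genes passed). Against AKI_PBS, in AKI_PTPi_mEVs 6 rose, 0 fell and 8 did not pass (median 0.33, where 51.1% of all genes passed). In AKI_PTPi_mEVs against sham 1 rose, 0 fell and 13 did not pass (median 0.08, where 13.2% of all genes passed). Nr1h3, the liver X receptor that senses oxysterols, fell by 1.89 ± 0.18 in AKI_PBS against sham (edgeR adjusted p = 4.23e-06) and rose by 2.16 ± 0.19 in AKI_PTPi_mEVs against AKI_PBS (edgeR adjusted p = 2.83e-06). Hnf4a, a tubule transcription factor, fell by 1.14 ± 0.23 in AKI_PBS against sham (edgeR adjusted p = 0.00111) and rose by 1.19 ± 0.23 in AKI_PTPi_mEVs against AKI_PBS (edgeR adjusted p = 0.000994). Ppara, the receptor that controls Cyp4a genes in mice, passed in none of the comparisons, with -0.23 ± 0.24 in AKI_PTPi_mEVs against AKI_PBS (edgeR adjusted p = 0.439). Without AKI_PBS replicate 2 it passed there as lower in AKI_PTPi_mEVs, at -0.51 (edgeR adjusted p = 0.0235). The gene that rose in AKI_PTPi_mEVs above sham was Nr1i2, the pregnane X receptor (0.93 ± 0.23, edgeR adjusted p = 0.0191), a call lost without AKI_PTPi_mEVs replicate 2 or 3 or any single sham library (edgeR adjusted p between 0.0551 and 0.092). Nr1i2 was also higher in AKI_PBS than in sham, by 0.77 ± 0.23 (edgeR adjusted p = 0.0125), and those libraries did not overlap.

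Eicosanoid genes outside the family make other products of arachidonic acid or break such products down. Of 9 tested, 2 rose, 6 fell and 1 did not pass in AKI_PBS against sham (median log2 fold change -0.86, where 55.7% of all genes passed). Against AKI_PBS, in AKI_PTPi_mEVs 5 rose, 2 fell and 2 did not pass (median 0.68, where 51.1% of all genes passed). In AKI_PTPi_mEVs against sham 0 rose and 0 fell, with 9 not passed (median -0.23, where 13.2% of all genes passed). Ephx2, the soluble hydrolase that removes epoxyeicosatrienoic acids, fell by 0.71 ± 0.25 in AKI_PBS against sham (edgeR adjusted p = 0.0274) and rose by 0.68 ± 0.25 in AKI_PTPi_mEVs against AKI_PBS (edgeR adjusted p = 0.0359), with overlapping libraries both times. Both calls were lost without several single libraries, among them AKI_PBS replicate 2 (edgeR adjusted p = 0.112 and 0.14). Ephx1, the microsomal epoxide hydrolase, fell by 1.81 ± 0.18 in AKI_PBS against sham (edgeR adjusted p = 5.99e-06) and rose by 1.57 ± 0.18 in AKI_PTPi_mEVs against AKI_PBS (edgeR adjusted p = 2.49e-05). Ptgs2, the inducible cyclooxygenase, went the other way, with a rise of 2.57 ± 0.37 in AKI_PBS against sham (edgeR adjusted p = 8.04e-05) and a fall of 2.90 ± 0.38 in AKI_PTPi_mEVs against AKI_PBS (log2 change -2.90, edgeR adjusted p = 5.54e-05).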

How the data were processed

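Kidney RNA was sequenced in 9 libraries, 3 per group. Per the labels' protocols, 100 ng of total RNA, extracted with phenol-chloroform, went into a Tn5-based kit. The deposited values are whole-number counts per gene, made with STAR and HTSeq, without stated versions, per the submitters' processing notes. Those name the human build GRCh38.p14, although the identifiers are mouse Ensembl genes. The sources used here do not state strand or multi-mapping settings, so reads of overlapping genes and near copies cannot be told apart.

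Symbols were matched for 52073 identifiers and not for 4850. Gene type, exon length and transcript sequence came from a GENCODE annotation of the mouse and promoters from RefSeq (GRCm38.p6). In R 4.3.3, edgeR 4.0.16 (filterByExpr by group, TMM, robust glmQLFit over all 9 libraries, 6 residual degrees of freedom) compared the groups, and p-values were adjusted over 17036 genes. Alternatives were DESeq2 1.42.0, limma 3.58.1 voom, other scalings and filters, a fit of only the groups compared, a replicate block and each library left out. Figures used Python 3.11.15 and matplotlib 3.10.9. Full values went to a panel of 20 genes, the most abundant member and the smallest p per role, and the 3 largest rises and falls per comparison (29 members), and other members were named to complete a role. Roles were given by subfamily and not gene by gene. Members, lists and tests were chosen with earlier results of these data known. Within-group libraries were no duplicates (chi-square per gene 6.79 to 35.6).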

Additional observations from a re-analysis of the deposited data

How the results depend on the processing

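Of 2329 log2 fold changes recomputed under alternatives, 2148 kept direction and call, 120 kept direction and lost the call, 36 kept direction and gained it and 25 changed sign. The AKI_PTPi_mEVs against sham count depended most on the settings: 17 P450 genes passed without a low-count filter, and with each library left out the range was 6 to 15 P450 genes and 883 to 3354 of all genes. The same ranges were 27 to 35 and 7893 to 9382 in AKI_PBS against sham, and 20 to 29 and 7221 to 8556 in AKI_PTPi_mEVs against AKI_PBS. A log2 fold change of at least 1 left 5228 genes in AKI_PBS against sham, 4570 in AKI_PTPi_mEVs against AKI_PBS and 987 in AKI_PTPi_mEVs against sham. Library totals in place of TMM moved the median of all genes to 0.10 in AKI_PBS against sham and to -0.13 in AKI_PTPi_mEVs against AKI_PBS. Without AKI_PBS replicate 3, 31, 29 and 15 P450 genes passed in AKI_PBS against sham, AKI_PTPi_mEVs against AKI_PBS and AKI_PTPi_mEVs against sham.

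Between libraries of the same replicate number, correlations of deviations lay between -0.187 and 0.111 over 9 pairs, and 1 was over 0.1. With 3 libraries per group, these correlations cannot decide whether replicate numbers pair the samples. With a replicate block the P450 counts were 33, 30 and 11 in the same order, against 9213, 8491 and 2050 of all genes, and in AKI_PBS against sham Cyp27b1 (2.31) and Cyp2j9 (-0.42) no longer passed (edgeR adjusted p = 0.076 and 0.0652), while Por (-0.78) did (edgeR adjusted p = 0.00906). Without a low-count filter, calls were lost for Cyp27b1, Cyp2d26 and Cyp2a4 in AKI_PBS against sham and for Cyp2j13 and Cyp2a4 in AKI_PTPi_mEVs against AKI_PBS, and gained for Cyp2j8 and Por, for Cyp7b1, and for Cyp2r1, Cyp2s1, Cyp4b1 and Cyp4a31 in AKI_PBS against sham, AKI_PTPi_mEVs against AKI_PBS and AKI_PTPi_mEVs against sham. In limma voom, Cyp26b1 was lost in AKI_PBS against sham and Cyp20a1 and Cyp2j8 in AKI_PTPi_mEVs against AKI_PBS. Fitted with only the groups compared, Cyp4a31, Cyp2r1 and Cyp2s1 passed in AKI_PTPi_mEVs against sham (edgeR adjusted p = 0.0113, 0.0427 and 0.0406). That fit lost Cyp4a31 and Cyp2j9 in AKI_PBS against sham (edgeR adjusted p = 0.0528 and 0.0545) and Cyp20a1 in AKI_PTPi_mEVs against AKI_PBS (edgeR adjusted p = 0.0827). The 25 changes of sign were of log2 fold changes that passed neither way, and their cause was not tested. With library totals Cyp2r1 was 0.046 in AKI_PBS against sham, without a low-count filter Cyp46a1 was 0.011 in AKI_PTPi_mEVs against AKI_PBS, and Cyp4f15 in AKI_PTPi_mEVs against sham was -0.31 in limma voom and -0.13 with a replicate block. The other changes came from leaving out 1 library, over which the ranges were as follows. In AKI_PBS against sham, Cyp2r1 ranged from -0.29 to 0.17 and Cyp2j8 from -0.054 to 1.71. In AKI_PTPi_mEVs against AKI_PBS, Cyp2d22 ranged from -0.31 to 0.13, Cyp2e1 from -0.017 to 0.68, Cyp46a1 from -0.47 to 0.18 and Ppara from -0.51 to 0.053. In AKI_PTPi_mEVs against sham, Cyp1a1 ranged from -0.29 to 0.14, Cyp1b1 from -0.65 to 0.19, Cyp26b1 from -0.36 to 0.063 and Cyp4f15 from -1.40 to 0.73. Depth limits members under about 10 counts per library, and reads without molecular identifiers are not independent molecules.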
